A study of Mus musculus with 12 samples.

Results

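The fragments described here derive from tRNA-Gly, the tRNAs that carry glycine. All mature tRNA-Gly entries were taken from the small RNA annotation of every library, which gave 4 isoacceptors (tRNAs that share an anticodon: GCC, CCC, TCC and ACC) of 51 in the series. Each isoacceptor was divided into tRF5 (fragments that begin at the 5′ end of the mature tRNA), tRF3 (fragments that reach the 3′ end, with or without the CCA tail) and other fragments, which gave 12 tRNA-Gly tRNA-derived fragments (tRFs) of 153. Sperm came from the epididymis of C57BL6/J males that received the control diet (CD, AIN-93G, 16% of the energy from fat) or the high-fat diet (HFD, D12492, 69% from fat by the labels, a lower share by the methods) from the age of 4 weeks, for 7 weeks. There were 3 libraries per diet, each a pool of 3 sperm samples. TM4, a mouse Sertoli cell line, was sequenced in 2 libraries each of control cells (Ctrl), cells given 10 µM Compound C (CC, an inhibitor of the energy sensor AMPK) for 12 h, and cells that overexpressed angiogenin from its full-length coding sequence (Ang OE). The labels do not say whether the TM4 replicates were separate cultures, so that p-values measure only the spread between these libraries. Ang mRNA is not measured in these small RNA files, and the overexpression could not be checked here. The titles name Ctrl only as control, and the paper's methods describe neither an empty vector nor a vehicle for it. Angiogenin and the vector that carries it therefore cannot be told apart, nor can CC and its vehicle.

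Angiogenin is a secreted ribonuclease that cuts tRNAs in the anticodon loop, which leaves a 5′ and a 3′ part. The 3′ part carries the CCA tail that is added to every tRNA and that holds the amino acid. Mature sperm are known to be rich in 5′ fragments of tRNA, those of tRNA-Gly-GCC among them, part of which is thought to be delivered by vesicles from the epididymis.

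The sequences below show how alike GCC and most CCC types are in their 5′ part, where a read has to be assigned to one or the other, and how far TCC and CCC type 2 are from them. They are genome sequences of GRCm39, found by a search for the tRNA structure, with the anticodon in capitals and without the CCA tail, which the genome does not encode. The search found 25 tRNA-Gly genes, and all 25 had a counterpart with the same chromosome and anticodon among the 28 tRNA-Gly genes named by RefSeq. Counterparts were counted per chromosome and anticodon, not matched gene by gene. The search also left out 1 of the autosomes, on which RefSeq names no tRNA-Gly gene, so that the agreement does not cover it. By the GENCODE annotation, 14 of the 25 are intergenic, 8 lie in introns and 3 overlap exons of other genes. The types differ in sequence. GCC type 1 has 8 genes, for example at chr1:170872554-170872624 (+), GCC type 2 has 3, for example at chr1:170894200-170894270 (+), CCC type 1 has 2, for example at chr3:96258483-96258553 (−), CCC type 2 has 2, for example at chr6:86380875-86380945 (+), CCC type 3 has 1 at chr3:96331349-96331419 (−), and TCC type 1 has 7, for example at chr1:170865566-170865637 (−). GCC type 3 and CCC type 4, with 1 gene each, are not shown. The search found no gene for ACC, for which RefSeq names 1, so that the ACC levels given here have no sequence beside them.
tRNA-Gly-GCC type 1: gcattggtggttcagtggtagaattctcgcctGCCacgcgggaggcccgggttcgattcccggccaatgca
tRNA-Gly-GCC type 2: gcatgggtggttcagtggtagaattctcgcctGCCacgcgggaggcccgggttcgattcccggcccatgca
tRNA-Gly-CCC type 1: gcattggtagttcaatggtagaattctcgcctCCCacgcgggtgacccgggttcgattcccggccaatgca
tRNA-Gly-CCC type 2: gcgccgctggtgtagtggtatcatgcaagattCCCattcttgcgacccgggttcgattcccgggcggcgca
tRNA-Gly-CCC type 3: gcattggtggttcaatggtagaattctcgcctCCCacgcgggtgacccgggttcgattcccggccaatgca
tRNA-Gly-TCC type 1: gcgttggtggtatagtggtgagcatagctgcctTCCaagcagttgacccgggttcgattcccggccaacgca

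Positions were counted from 1 at the 5′ end, with the CCC base first and the GCC base last. Over the first 30 bases, CCC type 3 differed from GCC type 1 by A15G alone, CCC type 1 by A9G and A15G, and CCC type 2 by 12 bases. TCC type 1 differed from GCC type 1 by 12 of these 30 bases. At the other end, CCC types 1 and 3 shared their last 26 bases with GCC type 1. The authors' annotation allowed a mismatch and divided a read that matched several entries among them, which leaves a fraction in the count. The tRF5 counts of GCC, CCC and TCC were whole in 12 of 12 libraries, as were the CCA-tailed counts of TCC (within 0.001 reads). The CCA-tailed counts of GCC and CCC held fractions in 12 of 12 libraries, and so did the tRF5 counts of ACC. The reads that were neither tRF5 nor CCA-tailed held fractions in 12 of 12 libraries for all 4 isoacceptors. Apart from tRF5 of GCC, CCC and TCC and the CCA-tailed part of tRF3 Gly-TCC, the levels given here therefore contain reads shared with other entries.

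Reads without ribosomal RNA numbered 23030602 to 59623558 per library, of which 204404 to 2623948 were tRNA-Gly reads. Levels are given as reads per 1000000 of these reads without rRNA (RPM), which count fragments and were not divided by length. The tRNA-Gly genes found are all 71 or 72 bases long. The paper selected the libraries by size and used reads of 15 to 45 nt. The tRF5 and tRF3 levels and shares therefore hold only fragments that passed this selection. miRNAs known from germ cells were detected in all sperm libraries (13 of 13, 1929 to 5273 RPM summed), and so were those of the epididymal epithelium (5 of 5, 4480 to 7580 RPM). In TM4 the epididymal list summed to 0.719 to 1.55 RPM. The germ cell list summed to 565 to 1349 RPM in TM4, mostly mir-34c, and mir-880 and mir-883a had no reads there. Its mir-449c was higher in TM4 (14.2 to 22.2 RPM) than in sperm (1.57 to 8.98 RPM). Lists of other cells were also high in sperm. The red blood cell list summed to 6749 to 13352 RPM there, against 547 to 822 RPM in TM4. The smooth muscle list, nearly all mir-143, summed to 15352 to 29715 RPM in sperm. Their part in the differences between sperm and TM4 was not tested. In these bulk samples, fewer cells of a type and less RNA per cell cannot be told apart.

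**Figure D1:**
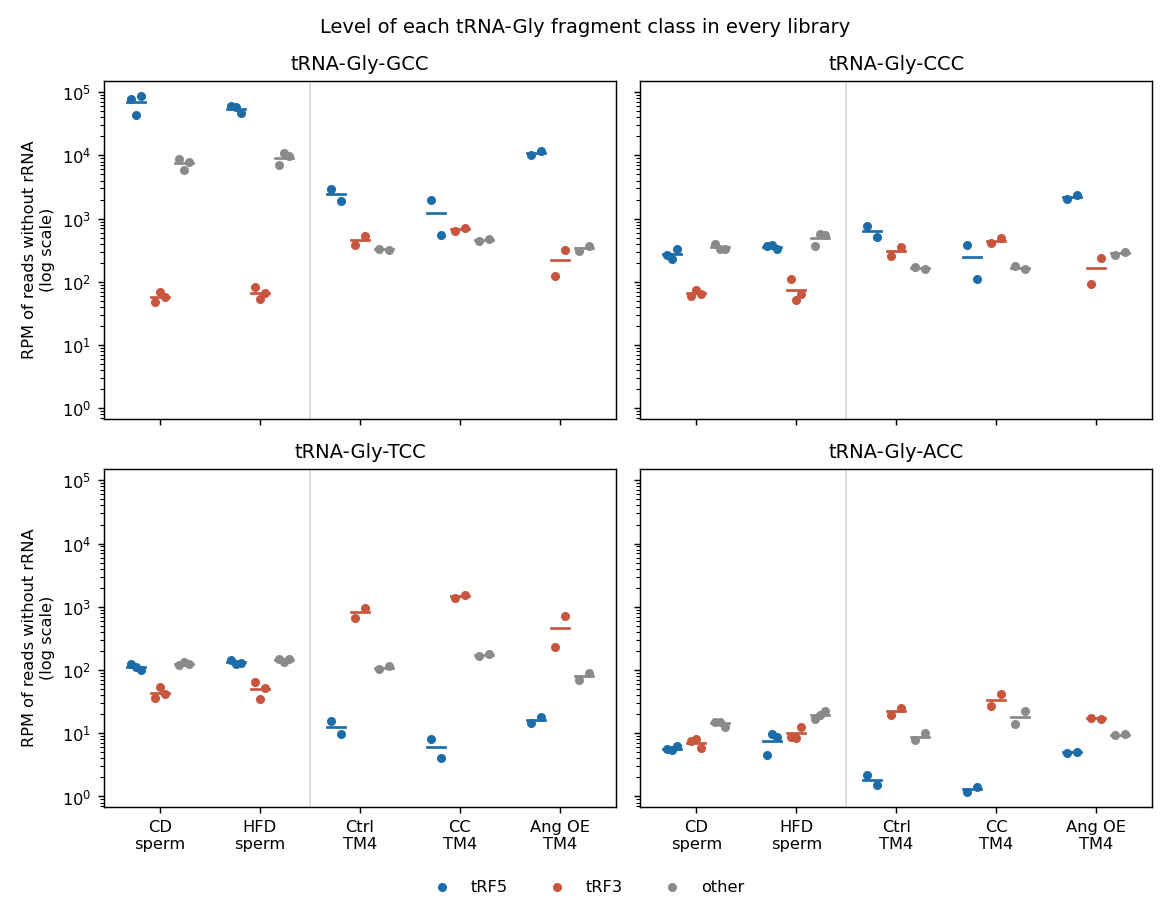
Level of tRF5, tRF3 and other fragments of each tRNA-Gly isoacceptor in RPM of reads without rRNA (log scale), with a point per library and a line at the group mean. tRF5 Gly-GCC lies between 44077 and 85788 RPM in all 6 sperm libraries and between 542 and 11655 RPM in TM4, while tRF3 Gly-TCC lies below 65 RPM in sperm and between 231 and 1547 RPM in TM4.

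A single fragment class, tRF5 Gly-GCC, made up most of the tRNA-Gly reads of sperm, and it was the tRF with the highest mean of all 153 in CD, HFD, Ctrl and Ang OE, but the 7th in CC. It stood at 77187, 44077 and 85788 RPM in the CD libraries and at 59667, 58643 and 46827 RPM in the HFD libraries. In TM4 it stood at 2963 and 1906 RPM in Ctrl, at 1940 and 542 RPM in CC, and at 10001 and 11655 RPM in Ang OE. The diets overlapped, as did Ctrl and CC, whereas every sperm library lay above every TM4 library and both Ang OE libraries lay above both Ctrl libraries.

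The 5′ fragment of CCC, which pools the types close to GCC with the distant type 2, was ordered otherwise. tRF5 Gly-CCC had 266, 231 and 334 RPM in CD, 366, 382 and 337 RPM in HFD, 761 and 505 RPM in Ctrl, 378 and 111 RPM in CC, and 2045 and 2393 RPM in Ang OE. Its highest levels were thus in the Ang OE cells, and both Ctrl libraries lay above all 6 sperm libraries. tRF5 Gly-TCC, whose 5′ part is distinct, had 99.0 to 143 RPM in sperm and 4.10 to 17.8 RPM in TM4. tRF5 Gly-ACC was the lowest of the 4, with 4.55 to 9.61 RPM in sperm and 1.19 to 5.04 RPM in TM4.

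The 3′ fragments were ordered the other way round from tRF5 Gly-GCC. tRF3 Gly-TCC had 35.5, 54.2 and 41.8 RPM in CD, 64.7, 35.1 and 51.3 RPM in HFD, 660 and 968 RPM in Ctrl, 1385 and 1547 RPM in CC, and 231 and 707 RPM in Ang OE. Sperm was below TM4 in every library, and both CC libraries were above both Ctrl libraries. tRF3 Gly-GCC had 48.9 to 83.7 RPM in sperm and 125 to 722 RPM in TM4, and tRF3 Gly-CCC had 51.3 to 110 RPM in sperm and 91.9 to 487 RPM in TM4. Nearly all of these reads carried the CCA tail, 95.5 to 99.3% in sperm and 99.5 to 99.9% in TM4 for any isoacceptor.

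Fragments of Gly-GCC that touch neither end were abundant in sperm, at 8772, 5940 and 7850 RPM in CD and 7042, 10758 and 9916 RPM in HFD, against 313 to 474 RPM in TM4. The other fragments of Gly-CCC, Gly-TCC and Gly-ACC differed less between sperm and TM4, with 329 to 563, 119 to 152 and 12.6 to 22.5 RPM in sperm and 159 to 302, 69.7 to 182 and 7.76 to 22.4 RPM in TM4.

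To compare the cells, CD sperm were tested against Ctrl TM4 with edgeR's quasi-likelihood test over all tRFs, with p-values adjusted by the Benjamini-Hochberg method and calls at an adjusted p under 0.05. tRF5 Gly-GCC was higher in sperm by 4.83 on the log2 scale (SE 0.67, adjusted p = 1.08e-11), tRF5 Gly-TCC by 3.12 (SE 0.38, adjusted p = 9.63e-15) and tRF5 Gly-ACC by 1.65 (SE 0.41, adjusted p = 9.97e-05). tRF5 Gly-CCC was lower in sperm (log2 fold change −1.19, SE 0.35, adjusted p = 0.00113). All 4 tRF3 were lower in sperm, by log2 fold changes of −1.66 (ACC), −2.22 (CCC), −2.97 (GCC) and −4.22 (TCC). Other fragments were higher for GCC (4.53, SE 0.54) and CCC (1.12, SE 0.36), whereas those of ACC (0.69, adjusted p = 0.0520) and TCC (0.20, adjusted p = 0.573) did not pass. Those of ACC were called higher in 5 of 14 alternative settings. Among these were DESeq2 with the same library sizes (0.69, adjusted p = 0.0367) and edgeR on genome-matched reads alone (1.36, adjusted p = 0.000504). In all, 10 of 12 tRNA-Gly tRFs were called, beside 83.9% of the 143 tRFs tested, 5 of 12 higher in sperm (54.5% of all) and 5 of 12 lower (29.4%). The median log2 fold change was 0.45 over the 12 and 1.17 over all tRFs. Without Ctrl replicate 1, the calls of tRF5 Gly-CCC (−0.86, adjusted p = 0.113) and of the other fragments of Gly-CCC (1.17, adjusted p = 0.0559) were lost, the latter also without Ctrl replicate 2 (1.08, adjusted p = 0.0787). With TMM normalization the median of all tRFs was 0.07, and 9 of 12 and 110 of all 143 were called, 3 higher and 6 lower in place of 5 and 5. The calls of tRF5 Gly-ACC (0.64, adjusted p = 0.101) and the other fragments of Gly-CCC (0.096, adjusted p = 0.698) were lost, and the other fragments of Gly-TCC were called lower (−0.82, adjusted p = 0.00407), as they were with DESeq2's own size factors (−0.71, adjusted p = 0.00384). Leaving out the CCA-tailed reads from tRF3 turned tRF3 Gly-CCC (0.42) and Gly-TCC (0.21) to values above 0, neither of them called, so that the lower level of those fragments in sperm rested on the CCA-tailed reads.

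**Figure D2:**
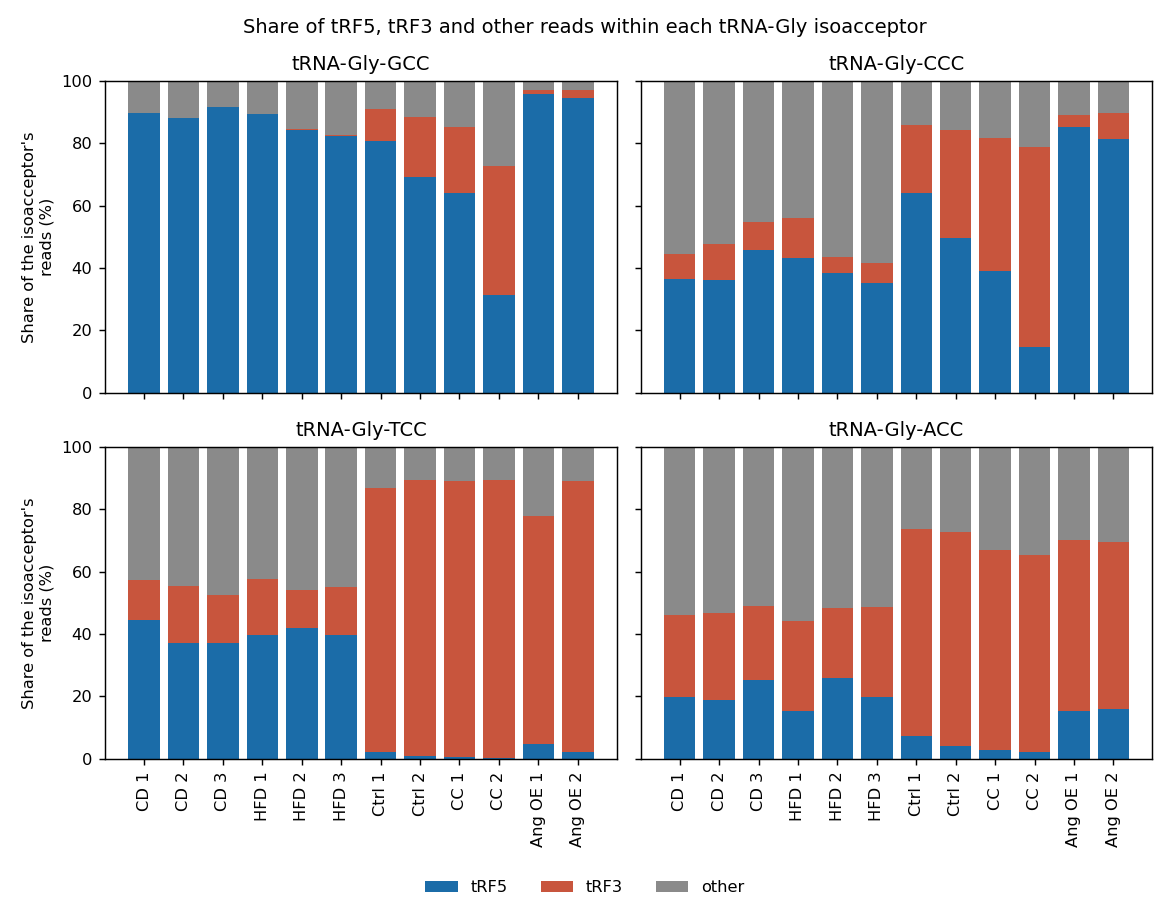
Share of tRF5, tRF3 and other fragments within the reads of each tRNA-Gly isoacceptor (%, stacked bars from 0 to 100), with a bar per library. tRF5 makes up 82.4 to 91.6% of Gly-GCC reads in sperm, and in TM4 its share ranges from 31.2% in a CC library to 95.8% in an Ang OE library, while tRF3 makes up 73.2 to 89.3% of Gly-TCC reads in TM4.

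The makeup of the family followed from these levels. The entry mature-tRNA-Gly-GCC held 97.7 to 98.9% of the tRNA-Gly reads in sperm, 64.8 and 56.2% in Ctrl, 54.0 and 40.5% in CC and 79.2 and 76.5% in Ang OE. mature-tRNA-Gly-CCC held 0.767 to 1.65% in sperm and 17.3 to 21.0% in TM4. mature-tRNA-Gly-TCC held 0.282 to 0.581% in sperm, but 13.7 and 22.3% in Ctrl, 27.9 and 40.4% in CC and 2.39 and 5.05% in Ang OE. mature-tRNA-Gly-ACC held 0.0260 to 0.0753% in sperm and 0.195 to 1.52% in TM4. The isoacceptors of TM4 were thus more even than those of sperm, and among the TM4 groups those of Ang OE were the least even.

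The tRF5 share of all tRNA-Gly reads was 89.1, 87.0 and 91.0% in CD and 88.5, 83.6 and 81.4% in HFD. In TM4 it was 66.0 and 49.4% in Ctrl, 41.6 and 15.3% in CC and 91.5 and 87.3% in Ang OE. The 3 TM4 groups did not overlap, but 2 libraries against 2 cannot reach an exact permutation p below 0.33, and no test was made. The widest of the 12 Wilson intervals at the 95% level was that of Ctrl replicate 2 (49.2 to 49.6%). These intervals cover counting error only, and the replicates differed by far more. The tRF3 share was 0.173 to 0.403% in sperm, 23.3 and 38.3% in Ctrl, 44.0 and 65.2% in CC and 3.53 and 7.95% in Ang OE.

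The share of 5′ fragments differed between the isoacceptors. Of the Gly-TCC reads, 37.1 to 44.6% were tRF5 in sperm, but only 0.236 to 4.68% in TM4, where the tRF5 share ranged from 31.2 to 95.8% for Gly-GCC and from 14.6 to 85.2% for Gly-CCC, lowest in CC replicate 2 and highest in Ang OE replicate 1 for both. Of the Gly-ACC reads in TM4, 2.19 to 16.0% were tRF5.

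The diets were compared to ask whether a high-fat diet changes the tRNA-Gly fragments of sperm. At an adjusted p under 0.05, 0 of 12 were called by edgeR, beside 0% of the 142 tRFs tested, and at an unadjusted p under 0.05 it was 0 of 12, beside 16.2% of all. DESeq2 called 0 of 12 as well, beside 0 of all 142, with the same library sizes or its own size factors. tRF5 Gly-GCC had the only log2 fold change below 0 (−0.33, SE 0.26, adjusted p = 0.374), with an interval of 2 SE from −0.85 to 0.19. The other 11 ranged from 0.19 (tRF3 Gly-CCC) to 0.48 (other fragments of Gly-CCC). The median was 0.28 over the 12 and 0.44 over all tRFs. In RPM, 4 of 12 tRNA-Gly tRFs were higher in every HFD library than in every CD library, beside 26.8% of all, and 0 of 12 were lower in every HFD library, beside 0%. These were tRF5 Gly-CCC (231 to 334 RPM in CD and 337 to 382 RPM in HFD), tRF3 Gly-ACC (5.89 to 7.97 and 8.43 to 12.6 RPM) and the other fragments of Gly-TCC (119 to 133 and 135 to 152 RPM) and Gly-ACC (12.6 to 15.3 and 16.7 to 22.5 RPM). With TMM normalization the median of all tRFs was −0.06 and all 12 tRNA-Gly values were below 0, none of them called, with −0.91 for tRF5 Gly-GCC (−0.80 with DESeq2's own size factors), so that these directions are relative to the scaling.

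The value of tRF5 Gly-GCC moved with single libraries, from −0.57 without CD replicate 2 to −0.14 without CD replicate 3, with −0.22 without HFD replicate 3, and its call with 1 of them. CD replicate 2, with 44077 RPM, was below all HFD libraries, whereas the other CD libraries were above all of them. Without CD replicate 2, edgeR called 1 of 12 tRNA-Gly tRFs and 26 of all 142, and the 1 was tRF5 Gly-GCC, lower on the HFD (−0.57 on the log2 scale, adjusted p = 0.00453). Of the 13 germ cell miRNAs, 12 were also highest in CD replicate 2 among the sperm libraries (all but mir-34b), at 2069 RPM for mir-871 against 336 to 852 RPM in the other 5 sperm libraries, and miRNAs of white blood cells summed to 285 to 337 RPM in CD and 423 to 719 RPM in HFD. Their part in the result was not tested.

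The share of tRNA-Gly among mature tRNA reads was 56.5, 47.5 and 57.1% in CD and 50.3, 50.1 and 44.8% in HFD, which overlapped (exact 2-sided permutation p = 0.3, adjusted p = 0.788 over 21 shares). In TM4 it was 20.6 and 21.6% in Ctrl, 20.6 and 16.1% in CC and 35.9 and 32.5% in Ang OE. The tRF5 share of tRNA-Gly reads was lower by 4.60 percentage points on the HFD in the mean, also with overlap (exact p = 0.2, adjusted p = 0.700 over 21 shares). Of the 21 shares and ratios within the family, 1 separated the diets, the ratio of the CCC to the GCC 5′ fragment.

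**Figure D3:**
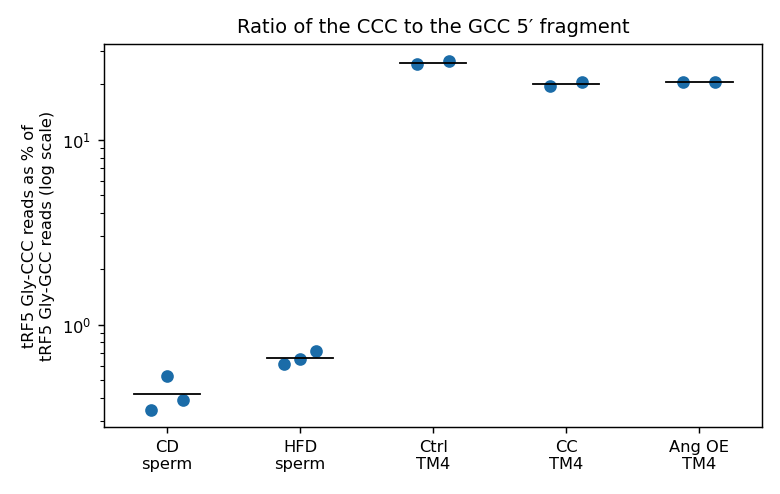
tRF5 Gly-CCC reads as a percentage of tRF5 Gly-GCC reads (log scale), with a point per library and a line at the group mean. The HFD libraries (0.614 to 0.720%) lie above the CD libraries (0.345 to 0.525%), and all TM4 libraries lie between 19.5 and 26.5%.

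tRF5 Gly-CCC amounted to 0.345, 0.525 and 0.389% of tRF5 Gly-GCC in CD and to 0.614, 0.652 and 0.720% in HFD. The groups did not overlap, and the exact permutation p of 0.1 is the smallest that 3 libraries against 3 can give (adjusted p = 0.700 over 21 shares). A ratio within a library does not depend on the library size. CCC type 3 differs from GCC type 1 by A15G alone over the first 30 bases. Whether misread GCC fragments were counted as CCC was not tested. In TM4 the ratio was 25.7 and 26.5% in Ctrl, 19.5 and 20.4% in CC, and 20.5 and 20.5% in Ang OE, so that the 5′ fragments of both isoacceptors moved nearly in step between CC and Ang OE while their levels differed widely.

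CC was compared with Ctrl to ask whether inhibition of AMPK changes the fragments in Sertoli cells. At an adjusted p under 0.05, 0 of 12 were called by edgeR, beside 0.699% of the 143 tRFs tested. DESeq2 called 0 of 12, beside 6 of all 143, with the same library sizes or its own size factors. At an unadjusted p under 0.05 it was 3 of 12, beside 27.3% of all. These were the other fragments of Gly-ACC (log2 fold change 1.03, SE 0.29) and Gly-TCC (0.68, SE 0.24) and tRF5 Gly-TCC (−1.06, SE 0.38, adjusted p = 0.147). All 4 tRF5 had values below 0, the furthest tRF5 Gly-CCC (−1.37, SE 0.61, adjusted p = 0.194), with −0.97 for GCC (SE 0.73, adjusted p = 0.364) and −0.48 for ACC (SE 0.32). All 4 tRF3 had values above 0, from 0.56 (CCC) to 0.85 (TCC, SE 0.57, adjusted p = 0.314). Of the marker miRNAs, the red blood cell list, nearly all mir-486a, summed to 547 to 579 RPM in CC against 806 to 822 RPM in Ctrl, the white blood cell list, nearly all mir-155, to 822 to 877 against 713 to 761 RPM, and the germ cell list to 565 to 610 against 613 to 627 RPM. Their part in the result was not tested. The median was 0.53 over the 12 and 0.43 over all tRFs, or 0.06 over all with TMM normalization.

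The CC libraries differed from each other in the 5′ fragments. Replicate 2 had less than replicate 1 of tRF5 Gly-GCC, Gly-CCC and Gly-TCC (542 against 1940, 111 against 378 and 4.10 against 8.10 RPM), but slightly more of the low tRF5 Gly-ACC (1.42 against 1.19 RPM). Without CC replicate 1, 4 of 12 and 41 of all 143 were called by edgeR, tRF5 Gly-CCC (−2.51, adjusted p = 0.0278), tRF5 Gly-TCC (−1.64, adjusted p = 0.0278) and, in the other direction, tRF3 Gly-ACC (0.87) and the other fragments of Gly-ACC (1.34). CC replicate 2 is then the only library of its group and is assumed to vary like the other groups. The paper adjusted its cell line data with ComBat-seq, a correction of the counts for batch, without naming the batch. With ComBat-seq by replicate number, edgeR called 5 of 12 and 50 of all 143. Lower in CC were tRF5 Gly-CCC (−1.41, adjusted p = 0.0449) and tRF5 Gly-TCC (−1.05, adjusted p = 0.0296). Higher were tRF3 Gly-ACC (0.59) and the other fragments of Gly-ACC (1.00) and Gly-TCC (0.71).

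Ang OE was compared with Ctrl to ask which fragments differ in cells that overexpress the ribonuclease, without an empty-vector control. Of the 12 tRNA-Gly tRFs, 1 was called by edgeR, beside 10.5% of the 143 tested. This was the low tRF5 Gly-ACC, with 2.15 and 1.51 RPM in Ctrl and 4.90 and 5.04 RPM in Ang OE (log2 fold change 1.44, SE 0.31, adjusted p = 0.0258), whose reads are shared with other entries. The abundant 5′ fragments had larger fold changes and larger errors, 2.15 for tRF5 Gly-GCC (SE 0.76, adjusted p = 0.0823) and 1.81 for tRF5 Gly-CCC (SE 0.62, adjusted p = 0.0763). These and the other fragments of Gly-CCC (0.79, SE 0.26, adjusted p = 0.0763) had an unadjusted p under 0.05, which made 4 of 12 beside 35.7% of all. tRF5 Gly-TCC had 15.8 and 9.69 RPM in Ctrl and 14.8 and 17.8 RPM in Ang OE, which overlapped (0.36, SE 0.37, adjusted p = 0.484). The 4 tRF3 had values from −0.39 (ACC) to −1.05 (GCC, SE 0.48, adjusted p = 0.153). With genome-matched reads alone, which called 3 of 11 and 19 of all 136, tRF3 Gly-GCC (−1.93) and tRF3 Gly-CCC (−1.91) were called lower by edgeR (adjusted p = 0.0337 for both). The median was 0.09 over the 12 and −0.01 over all tRFs.

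These calls depended on the libraries and the test. Without Ctrl replicate 2, Ang OE replicate 1 or Ang OE replicate 2, 0 of 12 were called, with 3 of 142, 11 of 142 and 12 of 141 over all, while the log2 fold change of tRF5 Gly-ACC was 1.20, 1.46 and 1.42. Without CC replicate 1 or 2, 4 of 12 were called, beside 44 of 143 and 45 of 142 over all, and by DESeq2 also 4, beside 32 of 143 with the same library sizes and 55 of 143 with its own size factors. In each case these were tRF5 of ACC, GCC and CCC and the other fragments of CCC. With ComBat-seq by replicate number, 6 of 12 and 63 of all 143 were called, these 4 and, lower in Ang OE, tRF3 Gly-GCC (−1.14, adjusted p = 0.0197) and tRF3 Gly-CCC (−0.99, adjusted p = 0.0283). The CC and Ang OE comparisons share the Ctrl libraries, so that a high or low Ctrl value moves both, and they were also compared directly. Some miRNAs moved with Ang OE too. The smooth muscle list, nearly all mir-143, summed to 61711 to 79792 RPM against 29771 to 31248 RPM in Ctrl, while mir-1a and mir-133a of that list lay between 0 and 0.245 RPM in all of TM4. The list of the mesenchymal and Sertoli line, mostly mir-21a, summed to 84025 to 84941 RPM against 50453 to 54569 RPM, whereas mir-221, mir-222 and mir-214 of that list were lower in both Ang OE libraries than in both Ctrl libraries. The germ cell list, mostly mir-34c, summed to 1215 to 1349 RPM against 613 to 627 RPM, and the red blood cell list, nearly all mir-486a, to 547 to 584 RPM against 806 to 822 RPM. Their part in the result was not tested.

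**Figure D4:**
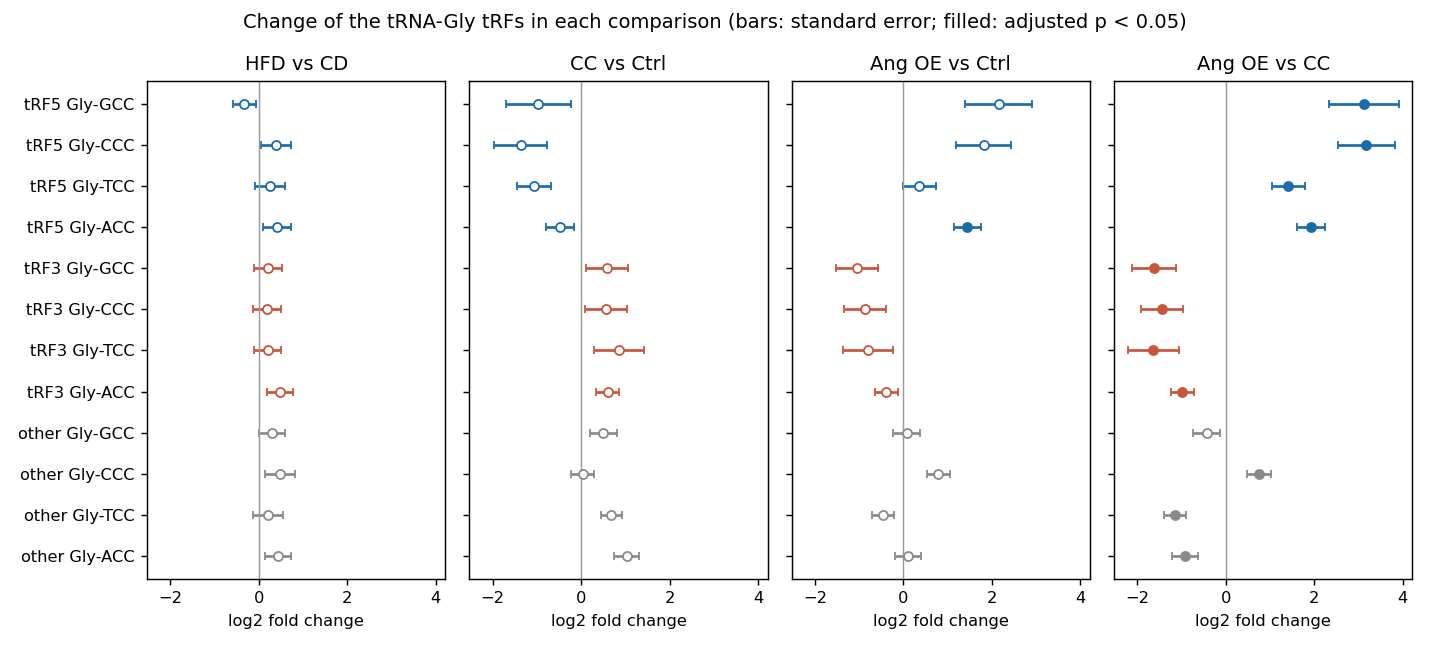
log2 fold change of each tRNA-Gly tRF in 4 comparisons, with the standard error as bars and filled points at an adjusted p under 0.05 (edgeR). Between Ang OE and CC, 11 of 12 points are filled, with all 4 tRF5 above 0 and all 4 tRF3 below 0, while between the diets and between CC and Ctrl none is filled.

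Between Ang OE and CC, 11 of 12 tRNA-Gly tRFs were called, beside 51.7% of the 143 tested, 5 of 12 higher in Ang OE (13.3% of all) and 6 lower (38.5%). All 4 tRF5 were higher in Ang OE, by 3.18 for Gly-CCC (SE 0.65, adjusted p = 0.00964), 3.12 for Gly-GCC (SE 0.79, adjusted p = 0.0153), 1.92 for Gly-ACC (SE 0.32, adjusted p = 0.00495) and 1.42 for Gly-TCC (SE 0.38, adjusted p = 0.0185). All 4 tRF3 were lower, by log2 fold changes of −1.64 (TCC), −1.62 (GCC), −1.43 (CCC) and −0.98 (ACC). The tRF5 and tRF3 of each isoacceptor thus moved in opposite directions between these cells. The tRF3 values of GCC and CCC are not separate, since their CCA-tailed counts contain shared reads. The lower tRF3 was not particular to tRNA-Gly. All tRF3 of other families also had values below 0, down to −3.57 for Ile-TAT, except SeC-TCA (0.24). Other fragments of Gly-CCC were higher (0.75, adjusted p = 0.0438), those of Gly-TCC (−1.15) and Gly-ACC (−0.92) were lower, and those of Gly-GCC did not pass (−0.43, adjusted p = 0.276). Counting CCA-tailed reads as other turned the value of Gly-CCC to −0.46 and ended its call (adjusted p = 0.286 by edgeR). The median was −0.67 over the 12 and −0.38 over all tRFs.

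The 5′ fragments of GCC, CCC and ACC kept their calls without any 1 library, and the 3′ fragments did not, although they stayed below 0 in every case, between −2.67 and −1.05 for TCC, −2.44 and −1.10 for GCC, −2.29 and −0.90 for CCC and −1.26 and −0.64 for ACC. Without CC replicate 2, 4 of 12 and 48 of all 142 were called, tRF5 of GCC, CCC and ACC higher and the other fragments of TCC lower. Without Ang OE replicate 1, 4 of 12 and 43 of all 142 were called, all of them tRF5. The call of the other fragments of Gly-CCC was lost whichever of the 6 TM4 libraries was left out (adjusted p = 0.0501 to 0.205), while its log2 fold change stayed between 0.65 and 0.84. Ang OE replicate 2 had more tRF3 Gly-TCC (707 against 231 RPM) and tRF3 Gly-GCC (317 against 125 RPM) than replicate 1. With TMM normalization the median of all tRFs was 0.03, and 6 of 12 and 55 of all 143 were called, 5 higher and 1 lower in place of 5 and 6, so that all 4 tRF3 (adjusted p = 0.0723 to 0.110) and the other fragments of Gly-ACC (adjusted p = 0.137) lost their calls. In CC the smooth muscle list summed to 30287 to 42667 RPM, the germ cell list to 565 to 610 RPM and the mesenchymal and Sertoli list to 52178 to 55798 RPM, all below Ang OE. The last of these rested on mir-21a (69181 and 71524 RPM in Ang OE, 37806 and 41148 RPM in CC), whereas mir-221 and mir-222 of the same list were lower in both Ang OE libraries than in both CC libraries, and mir-214 overlapped. Their part in the result was not tested.

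The effect of the HFD in sperm was set against the effects in TM4, which share no library with it. For tRF5 Gly-GCC the effect of the HFD was lower than that of Ang OE by a log2 difference of −2.48 (SE 0.72, adjusted p = 0.0104 by edgeR) and for tRF5 Gly-CCC by −1.43 (SE 0.53, adjusted p = 0.0447), which made 2 of 12 beside 20.8% of the 144 tested, both of them lower (6.25% of all). Against the effect of CC, 0 of 12 differed by edgeR, beside 0.694% of all, and 2 of 12 at an unadjusted p under 0.05 (5.56% of all), tRF5 Gly-CCC (1.76, SE 0.53, adjusted p = 0.0790) and tRF5 Gly-TCC (1.32, SE 0.47, adjusted p = 0.198). Several libraries decided these calls. The difference from Ang OE was not called for tRF5 Gly-GCC without CD replicate 3 (−2.29, adjusted p = 0.0699), Ctrl replicate 2 (−2.20, adjusted p = 0.102) or Ang OE replicate 2 (−2.36, adjusted p = 0.0503). For tRF5 Gly-CCC it was not called without CD replicates 1 or 3, HFD replicates 1 or 3, Ctrl replicate 2 or either Ang OE library (adjusted p = 0.0599 to 0.237). tRF3 Gly-GCC was called in the other direction, with a higher effect of the HFD, under TMM normalization (1.21, adjusted p = 0.0321) and without CD replicate 2, HFD replicate 2 or either CC library (1.26 to 1.41, adjusted p = 0.0358 to 0.0473). Without Ang OE replicate 2, tRF3 of Gly-GCC (2.08), Gly-TCC (2.02) and Gly-CCC (1.92) were the only 3 of 12 called, all of them higher, beside 22 of all 144. The difference from CC was called for tRF5 Gly-CCC without Ctrl replicate 2 (2.02, adjusted p = 0.0269), where 4 of all 144 were called, and, without CC replicate 1, where 8 of all 144 were called, for tRF5 of Gly-CCC (2.90, adjusted p = 0.000419), Gly-GCC (1.84, adjusted p = 0.0280) and Gly-TCC (1.89, adjusted p = 0.0247).

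The tRFs of other families whose levels followed those of tRF5 Gly-GCC most closely were chosen by the root mean square difference of log2(RPM + 1) over the 12 libraries, after each was centred on its own mean. Among 135 tRFs these were tRF5 of the initiator tRNA-iMet-CAT (0.635), tRF5 Val-CAC (0.852) and the other fragments of SeC-TCA (0.983), the selenocysteine tRNA. tRF5 Gly-TCC stood at 0.885. tRF5 iMet-CAT ranged from 124 to 222 RPM in sperm, from 4.35 to 13.5 RPM in Ctrl and CC and from 22.9 to 39.7 RPM in Ang OE. tRF5 Val-CAC, at 7696 to 16302 RPM in sperm and 4165 and 7088 RPM in Ang OE, was at 634 and 181 RPM in CC. The points share libraries and depth, and the likeness is a description.

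A list of 7 tRF5 of other tRNAs known for 5′ fragments in sperm was set beside these (Glu-CTC, Glu-TTC, Val-CAC, Val-AAC, His-GTG, Lys-CTT and Lys-TTT). Their means in CD sperm ranged from 81.2 RPM (Lys-TTT) to 12010 RPM (Glu-CTC), so that not all were abundant here. Of the 7, 0 were called between the diets (log2 fold changes −0.51 to 0.31), beside 0% of all tRFs. Between CC and Ctrl it was 0 (−2.32 to −0.36), beside 0.699%, and between Ang OE and Ctrl 0 (−0.26 to 1.77), beside 10.5%. Between Ang OE and CC, 5 of 7 were called higher in Ang OE (0.10 to 3.79), beside 13.3% of all tRFs, and between CD sperm and Ctrl, 5 were called higher in sperm, beside 54.5% of all, and 1 lower, beside 29.4%.

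Mitochondria encode a tRNA-Gly of their own, with the anticodon TCC, which is no product of the nuclear genes. Its reads amounted to 244, 203 and 205 RPM in CD and 148, 236 and 210 RPM in HFD (exact permutation p = 0.6), and to 30.2 and 18.4 RPM in Ctrl, 31.9 and 14.5 RPM in CC and 12.4 and 11.6 RPM in Ang OE. Of these reads, 0.147 to 3.49% were tRF5 in any library, so that the abundance of 5′ fragments did not extend to the mitochondrial tRNA. In Ang OE both values were below both Ctrl values, in contrast to the nuclear tRF5 Gly-GCC.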

How the data were processed

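The authors trimmed the reads with Trimmomatic 0.40, checked them with FastQC 0.12.0 and annotated those of 15 to 45 nt with SPORTS1.1. The labels name the build mm10, and its use in SPORTS1.1 is not stated. The deposited files hold estimated counts per subclass, without normalization. Reads with and without a genome match were added here. All 12 tRNA-Gly tRFs passed the filter of at least 10 reads in at least 3 sperm or 2 TM4 libraries. Rounded counts, with reads without rRNA as library size, went into edgeR 4.0.16 (R 4.3.3). TM4 groups shared a fit of 6 libraries. Comparisons of sperm with TM4 effects used all 12. Members, lists and tests were chosen with earlier results of these data known. Every tRNA-Gly tRF was reported by rule, and other tRFs by likeness. Alternatives were DESeq2 1.42.0, TMM, other library sizes, filters, read sets and thresholds, ComBat-seq (sva 3.50.0), a replicate block and leaving out each library. The fits were tested on simulated data. The other tools were scipy 1.17.1, numpy 2.4.6, pandas 2.3.3 and matplotlib 3.10.9 under Python 3.11.15.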

Additional observations from a re-analysis of the deposited data

Results flagged for a closer look

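2 results differed between the sperm and the TM4 comparison by a test of the difference itself. The log2 fold change of tRF5 Gly-GCC was −0.33 between the diets and 2.15 between Ang OE and Ctrl, a difference of −2.48 (adjusted p = 0.0104 by edgeR), with a range from −2.83 to −2.20 when each library was left out in turn, and not called without CD replicate 3 (adjusted p = 0.0699), Ctrl replicate 2 (0.102) or Ang OE replicate 2 (0.0503). The log2 fold change of tRF5 Gly-CCC was 0.39 between the diets and 1.81 between Ang OE and Ctrl, a difference of −1.43 (adjusted p = 0.0447), with a range from −1.75 to −1.16, and not called when any of CD replicates 1 or 3, HFD replicates 1 or 3, Ctrl replicate 2 or the Ang OE libraries was left out (adjusted p = 0.0599 to 0.237). Diet and overexpression were applied in different cells, so that the agent and the cell type cannot be told apart.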

How the results depend on the processing

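Replicates of the same group differed by more than counting noise alone. Depth limits most the lowest tRF, tRF5 Gly-ACC, whose deposited 5′ counts were 61.6 to 275 reads per library. Between the diets, TMM normalization gave log2 fold changes of −0.13 (tRF5 Gly-ACC), −0.18 (tRF5 Gly-CCC), −0.26 (tRF5 Gly-TCC), −0.018, −0.33, −0.30 and −0.31 (tRF3 Gly-ACC, Gly-CCC, Gly-GCC, Gly-TCC) and −0.067, −0.040, −0.25 and −0.32 (other Gly-ACC, Gly-CCC, Gly-GCC, Gly-TCC) in place of values above 0, and DESeq2 with its own size factors gave −0.027, −0.077 and −0.16 (tRF5 Gly-ACC, Gly-CCC, Gly-TCC), −0.24, −0.21 and −0.22 (tRF3 Gly-CCC, Gly-GCC, Gly-TCC) and −0.15 and −0.22 (other Gly-GCC, Gly-TCC). These follow the scaling, which moved the median of all tRFs. With each library left out, tRF3 Gly-CCC ranged from −0.20 to 0.40 and tRF3 Gly-TCC from −0.020 to 0.40 between the diets, other Gly-CCC from −0.041 to 0.11 between CC and Ctrl, other Gly-ACC from −0.066 to 0.30 and other Gly-GCC from −0.057 to 0.19 between Ang OE and Ctrl, and, for the difference of effects, tRF3 Gly-ACC from −0.39 to 0.22 (HFD against CC) and tRF5 Gly-TCC from −0.49 to 0.21 (HFD against Ang OE). Other Gly-CCC between CC and Ctrl was −0.30 with TMM, −0.31 with DESeq2's size factors and −0.017 with genome-matched reads. Counting CCA-tailed reads as other gave −0.23, −0.062 and −0.48 (other Gly-ACC, Gly-CCC, Gly-GCC) between Ang OE and Ctrl, −0.46 (other Gly-CCC) between Ang OE and CC, and −0.57, −0.15 and −2.45 (other Gly-ACC, Gly-CCC, Gly-TCC) and 0.42 and 0.21 (tRF3 Gly-CCC, Gly-TCC) between CD sperm and Ctrl, since the reads change class. In the last comparison TMM gave −0.35 and −0.82, and DESeq2's size factors −0.23 and −0.71 (other Gly-ACC, Gly-TCC), and all clean reads as library size −0.050 (other Gly-TCC).

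The number of tRNA-Gly tRFs called ranged, with each library left out, from 0 to 1 between the diets (0 to 26 over all tRFs), from 0 to 4 between CC and Ctrl (1 to 41), from 0 to 4 between Ang OE and Ctrl (3 to 45), from 4 to 10 between Ang OE and CC (43 to 85), from 8 to 11 between CD sperm and Ctrl (109 to 121), and from 0 to 3 for the difference of the HFD from the CC effect (0 to 8) and from the Ang OE effect (10 to 53). ComBat-seq by replicate number called 5 of 12 between CC and Ctrl (50 of all 143) and 6 between Ang OE and Ctrl (63 of 143). Between Ang OE and Ctrl, DESeq2 called 4 with the same library sizes (32 of 143) and 4 with its own (55 of 143), genome-matched reads gave 3 of 11 (19 of 136), and a fit of these groups alone gave 4 (45 of 142). TMM called 6 between Ang OE and CC (55 of 143). The causes were not tested. The tRNA-Gly share differed between the diets by −5.27 percentage points (−8.39 to −3.48 with each library left out) and the tRF5 share by −4.60 (−6.59 to −3.04).

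The replicate numbers were not taken as pairs, since the labels give no shared batch. Same-numbered sperm libraries had correlations of −0.02, 0.21 and 0.18 over 136 tRFs. Same-numbered TM4 libraries had −0.22 (Ctrl and Ang OE) and −0.27 (CC and Ang OE), but 0.77 for Ctrl and CC, whose numbers may therefore mark pairs. Within both numbers every tRNA-Gly tRF5 was lower in CC than in Ctrl. The log2 ratios were −0.61 and −1.81 for GCC and ranged from −2.19 (CCC) to −0.080 (ACC). A replicate block left the calls at 0 between the diets (0 of all 142), 0 between CC and Ctrl (2 of 143), 1 between Ang OE and Ctrl (25 of 143) and 11 between Ang OE and CC (77 of 143). The crossed block for Ang OE, chosen after seeing the data, called 3 between Ang OE and Ctrl (31 of 143) and 11 between Ang OE and CC (85 of 143).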
